A study of Mus musculus with 12 samples.

Results

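Ccl6 and Ccl9 are a pair of mouse CC chemokine genes that lie next to each other on chromosome 11, and they are described here in 6 cell populations isolated from the mouse small intestine. They were chosen by name: every probe set annotated to either gene was taken over all 12 arrays, which gave 3 probe sets, 1 for Ccl6 and 2 for Ccl9, and 2 of the 17097 genes that the arrays measured. None of the 3 probe sets is annotated to another gene. The pair was picked with values of these arrays in view, so its levels and differences are given as a description, without a test.

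The 6 populations were Mex3a High, Mex3a Low and Mex3a Neg cells with Lgr5 High, and the same Mex3a gates with Lgr5 Low, and each population was collected once in each of 2 biological replicates, MR793 and MR820. Cells were primary and untreated, RNA came from 2000 cells per sample with 22 amplification cycles, and each sample was put on 1 Affymetrix expression array in 1 of 3 strips. The labels give no strain, sex, age or allele, and how Mex3a and Lgr5 were read out to sort the cells is not given in the sources used here. Lgr5 is the R-spondin receptor used to mark crypt base stem cells, and the product of Mex3a binds RNA.

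Chemokines are small secreted proteins that bind receptors coupled to G proteins and draw receptor-bearing leukocytes along a gradient. Ccl6 and Ccl9 belong to the CC family, are found in rodents without a direct human counterpart, and act on cells that carry Ccr1. Both are best known from myeloid cells, and Ccl9 is also known from the epithelium that covers Peyer's patches in the mouse.

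The 2 genes have the same orientation. In the RefSeq annotation (GRCm38.p6), Ccl9 and Ccl6 are 9249 bases apart on the minus strand of chromosome 11, with 0 genes lying wholly between them, and the non-coding gene E230016K23Rik overlaps Ccl6. Ccl5 and the pseudogene Ccl16-ps are the next chemokine genes on one side and Ccl3 and Ccl4 on the other. The 250 bases before each annotated start are shown because the 2 genes share a neighbourhood and part of their pattern on the arrays. In the Ccl6 sequence, chr11:83593088-83593337, capitals mark bases that align with the Ccl9 window. In the Ccl9 sequence, chr11:83578637-83578886, capitals mark motif matches. Both are written 5′ to 3′ in the sense of the gene.

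Ccl6: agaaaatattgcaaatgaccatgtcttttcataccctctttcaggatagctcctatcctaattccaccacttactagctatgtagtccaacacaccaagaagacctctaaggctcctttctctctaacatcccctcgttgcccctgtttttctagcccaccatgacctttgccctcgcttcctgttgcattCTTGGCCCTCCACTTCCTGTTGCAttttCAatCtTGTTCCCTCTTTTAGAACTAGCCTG

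Ccl9: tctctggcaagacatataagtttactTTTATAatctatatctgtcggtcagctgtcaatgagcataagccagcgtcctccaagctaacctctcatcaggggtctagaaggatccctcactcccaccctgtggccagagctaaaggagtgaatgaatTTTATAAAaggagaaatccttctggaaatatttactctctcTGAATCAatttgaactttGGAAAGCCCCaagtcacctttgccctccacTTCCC

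A local alignment of the windows from 250 bases before to 50 bases after each start joined 67 bases, of which 59 were identical (88.1%), with 3 gaps. The aligned stretch ran over positions -59 to 15 of Ccl6 but -18 to 49 of Ccl9, so it sits at a different distance from the 2 annotated starts. With the 250 upstream bases alone, 17 bases aligned and 16 were identical.

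Of 9 motifs searched on both strands of these 300-base windows, Ccl6 held 0. Ccl9 held TATAAA, the TATA box letters, on the minus strand at positions -224 to -219 and -94 to -89 and on the plus strand at -92 to -87, where the last 2 overlap. Its window also held a form of the NF-kB site (3 G, any 5 bases, 2 C) on the minus strand at -35 to -26, the AP-1 letters TGANTCA at -53 to -47, and the RBPJ letters GTGGGAA on the minus strand at -5 to 2. Among 32851 RefSeq windows of this length, 13.6% held the TATA box letters, 50.8% the NF-kB form, 7.81% the AP-1 letters and 6.38% the RBPJ letters. Neither window held the ETS letters GAGGAA, found in 28.3% of all windows, the CDX letters TTTATG, found in 11.9%, or the GATA letters AGATAA, found in 11.2%. Neither held the TCF letters CTTTGAT, found in 3.73%, or the STAT form (TTC, any 4 bases, GAA), found in 6.95%. A match is a run of letters and not a measured site.

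All levels below are log2 expression values from RMA, a method that corrects background, normalizes arrays to one distribution and summarizes the probes of a probe set. A difference of 1 is a 2-fold change. Signals of different probe sets are not compared with each other. The median probe set lay between 5.83 and 6.04 on the arrays, and a probe set without target still has a value, so a level near or below the median is not a sign of expression. Since cells were pooled, fewer cells of a type and less RNA per cell cannot be told apart in any result below. The array of Mex3a High Lgr5 High cells from MR793 stood apart: over all probe sets it correlated with the other 11 arrays at 0.896 to 0.916, whereas those 11 correlated with each other at 0.971 to 0.996. Lgr5 had 8.999 to 10.2 on the Lgr5 High arrays and 6.37 to 8.05 on the Lgr5 Low arrays, while Mex3a lay between 5.44 and 6.35 on all arrays, too close to the median to check the Mex3a gates.

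Ccl6, read by probe set 1417266_PM_at, was well above the median on all 12 arrays and was lowest in Mex3a Neg cells with Lgr5 High. With Lgr5 High it had 10.65 in MR793 and 10.27 in MR820 in Mex3a High cells, 10.13 and 9.996 in Mex3a Low cells, and 8.96 and 8.98 in Mex3a Neg cells. The 2 Mex3a Neg arrays lay below the other 4, by at least 1.02 within the same replicate. With Lgr5 Low it had 11.02 in MR793 and 10.54 in MR820 in Mex3a High cells, 10.22 and 10.02 in Mex3a Low cells, and 10.12 and 9.13 in Mex3a Neg cells. In these cells Mex3a High lay above both other gates, and the MR793 array of Mex3a Neg cells fell between the 2 Mex3a Low arrays.

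Ccl9, read by probe set 1417936_PM_at, had its lowest values in the same population but followed the Lgr5 gate more closely. With Lgr5 High it had 8.81 in MR793 and 8.83 in MR820 in Mex3a High cells, 8.75 and 8.59 in Mex3a Low cells, and 7.07 and 7.82 in Mex3a Neg cells. Mex3a Neg cells were again below the other gates, and their 2 arrays lay further apart than those of any other population for this gene. With Lgr5 Low it had 9.44 in MR793 and 9.67 in MR820 in Mex3a High cells, 9.49 and 9.53 in Mex3a Low cells, and 8.60 and 8.96 in Mex3a Neg cells. Here the Mex3a High and Mex3a Low arrays overlapped, and both lay above Mex3a Neg.

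The second Ccl9 probe set, 1448898_PM_at, was dim. Its values with Lgr5 High were 5.24 in MR793 and 5.203 in MR820 in Mex3a High cells, 5.29 and 5.02 in Mex3a Low cells, and 4.99 and 4.92 in Mex3a Neg cells. With Lgr5 Low they were 5.69 and 5.63 in Mex3a High cells, 5.57 and 5.87 in Mex3a Low cells, and 5.15 and 5.43 in Mex3a Neg cells. All of these lie below or near the median of their arrays. The 2 Ccl9 probe sets ran in parallel over the 12 arrays (Pearson r = 0.86, a description over arrays that share populations and replicates), with smaller differences on the dim one.

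**Figure D1:**
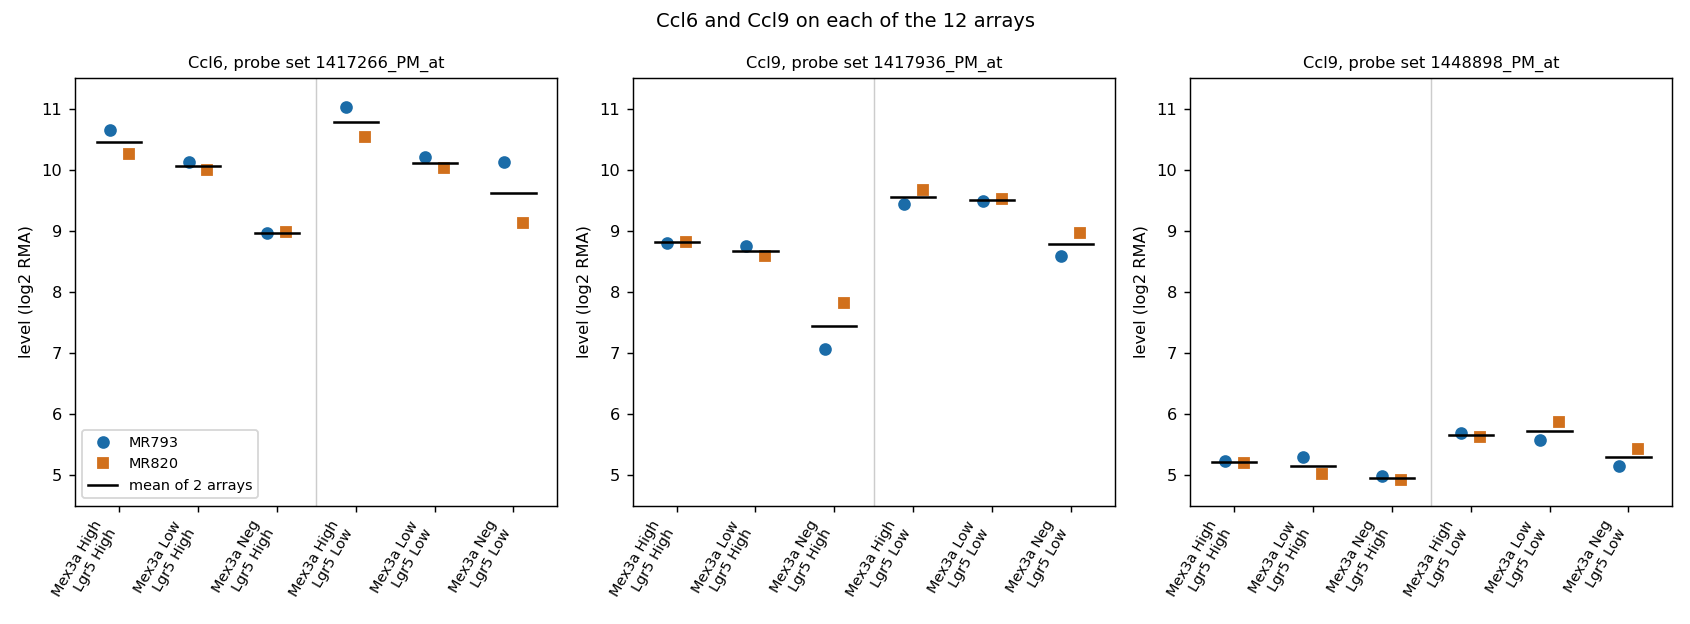
Level (log2 RMA, vertical axis) of the Ccl6 probe set and the 2 Ccl9 probe sets in the 6 populations, with MR793 as circles, MR820 as squares and the mean of both as a line. Mex3a Neg Lgr5 High cells hold the lowest mean on each of the 3 probe sets, and 1448898_PM_at stays between 4.92 and 5.87.

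Ordered by population mean, Ccl6 went down over Mex3a High Lgr5 Low (10.78 ± 0.34, SD, n = 2), Mex3a High Lgr5 High (10.46 ± 0.27), Mex3a Low Lgr5 Low (10.12 ± 0.14), Mex3a Low Lgr5 High (10.06 ± 0.09), Mex3a Neg Lgr5 Low (9.63 ± 0.70) and Mex3a Neg Lgr5 High (8.97 ± 0.01). Both arrays lay above both arrays of the next population only at 2 places, between Mex3a High Lgr5 High and Mex3a Low Lgr5 Low and between Mex3a Neg Lgr5 Low and Mex3a Neg Lgr5 High. The other neighbours did not differ beyond their spread.

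Ccl9 went down over Mex3a High Lgr5 Low (9.55 ± 0.16, SD, n = 2), Mex3a Low Lgr5 Low (9.51 ± 0.02), Mex3a High Lgr5 High (8.82 ± 0.01), Mex3a Neg Lgr5 Low (8.78 ± 0.26), Mex3a Low Lgr5 High (8.67 ± 0.12) and Mex3a Neg Lgr5 High (7.45 ± 0.53). Its steps clear of overlap were at the same 2 places in the order, which for this gene separate Mex3a High and Mex3a Low cells with Lgr5 Low from the rest, and Mex3a Neg Lgr5 High cells from all others. Both orders start and end with the same population and differ in between.

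The first comparison asks how Mex3a High and Mex3a Low cells differ from Mex3a Neg cells within the Lgr5 High gate. Mex3a High cells exceeded Mex3a Neg cells by 1.49 ± 0.31 in Ccl6 (log2, limma SE over all 12 arrays), a 2.81-fold difference, with 1.69 in MR793 and 1.29 in MR820. Ccl9 was 1.37 ± 0.26 higher, or 2.58-fold, with 1.74 in MR793 and 1.00 in MR820. Each of these differences was taken within 1 strip, and for neither gene did the arrays overlap. In this comparison limma called 0 of 17097 genes at an adjusted p under 0.05 (0% called, with 661 genes at an unadjusted p under 0.05; 5 genes were called with the replicate as a block), and nothing is read from that for the pair. Without the array that stood apart the differences were 1.299 for Ccl6 and 1.38 for Ccl9, and without the MR793 or the MR820 array of Mex3a Neg cells the Ccl9 value was 0.99 or 1.75.

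Mex3a Low cells of the same Lgr5 gate were higher than Mex3a Neg cells by 1.09 ± 0.31 for Ccl6 (1.16 in MR793, 1.02 in MR820) and by 1.22 ± 0.26 for Ccl9 (1.68 in MR793, 0.76 in MR820), or 2.13-fold and 2.33-fold. Mex3a High minus Mex3a Low differences in this gate were 0.40 for Ccl6 (0.53 in MR793, 0.27 in MR820) and 0.15 for Ccl9 (0.06 in MR793, 0.24 in MR820). The arrays overlapped for neither gene. For both genes, then, the larger step with Lgr5 High lay between Mex3a Neg cells and the 2 other gates. For Ccl6 the Mex3a High minus Mex3a Low difference was 0.66 ± 0.31 with Lgr5 Low, and whether it differs between the Lgr5 gates was not tested. The MR820 arrays of Mex3a Low and Mex3a Neg cells were on different strips. limma called 0 genes between Mex3a Low and Mex3a Neg cells (0% of all genes, 79 at an unadjusted p under 0.05).

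Within the Lgr5 Low gate both genes had higher means in Mex3a High and in Mex3a Low cells than in Mex3a Neg cells. Their Mex3a High minus Mex3a Low differences were unlike in value, but the 2 genes were not tested against each other. In Ccl6, Mex3a High cells exceeded Mex3a Neg cells by 1.16 ± 0.31 (0.90 in MR793, 1.41 in MR820, 2.23-fold), and Mex3a Low cells by 0.66 ± 0.31 (0.81 in MR793, 0.52 in MR820, 1.58-fold). Mex3a Low cells exceeded Mex3a Neg cells by 0.50 ± 0.31 in Ccl6, with 0.09 in MR793 and 0.90 in MR820, and the arrays overlapped. That value rests on the Mex3a Neg arrays, which lay 0.99 apart. It was 0.99 without the MR793 one and -0.0016 without the MR820 one. The Mex3a High to Mex3a Neg difference was 1.65 and 0.66 in these fits. In MR820 the Mex3a Neg array was on another strip than the Mex3a High and Mex3a Low arrays of this gate. With the strip as a block, Mex3a High and Mex3a Low cells exceeded Mex3a Neg cells in Ccl6 by 1.33 and 0.665.

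In Ccl9, Mex3a High cells with Lgr5 Low exceeded Mex3a Neg cells by 0.77 ± 0.26 (0.85 in MR793, 0.70 in MR820, 1.71-fold) and Mex3a Low cells exceeded them by 0.73 ± 0.26 (0.90 in MR793, 0.56 in MR820, 1.66-fold). With the strip as a block these differences were 0.71 and 0.67. Between Mex3a High and Mex3a Low cells the difference was 0.05 ± 0.26, with -0.05 in MR793 and 0.14 in MR820, and the arrays overlapped. In the Lgr5 Low gate limma called 295 genes between Mex3a High and Mex3a Neg cells (1.73%; 1.71% higher and 0.0117% lower in Mex3a High), 8 between Mex3a Low and Mex3a Neg cells (0.0468%) and 152 between Mex3a High and Mex3a Low cells (0.889%). Whether the Mex3a High to Mex3a Neg difference of either gene differs between the Lgr5 gates was not tested, since these values chose the pair. That difference was larger with Lgr5 High than with Lgr5 Low by 0.33 for Ccl6, a value that is -0.16 and 0.83 without one or the other Mex3a Neg Lgr5 Low array, and by 0.60 for Ccl9, a value that is 0.22 and 0.97 without the MR793 or the MR820 array of Mex3a Neg Lgr5 High cells.

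Between the Lgr5 gates, Ccl9 was lower in Lgr5 High than in Lgr5 Low cells at every Mex3a gate. The Lgr5 High minus Lgr5 Low difference of Ccl9 was -0.74 in Mex3a High cells (-0.63 in MR793, -0.84 in MR820), -0.84 in Mex3a Low cells (-0.74 and -0.94) and -1.33 in Mex3a Neg cells (-1.52 and -1.14), and the arrays did not overlap at any of the 3 gates. Averaged over the Mex3a gates it was -0.97 ± 0.15, a 1.96-fold difference, with -0.97 in MR793 and -0.97 in MR820. The dim Ccl9 probe set had -0.45 for the same mean.

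For Ccl6 the differences between the Lgr5 gates were smaller in value. Its Lgr5 High minus Lgr5 Low difference was -0.32 in Mex3a High cells, -0.06 in Mex3a Low cells and -0.65 in Mex3a Neg cells, with -1.16 in MR793 and -0.15 in MR820 in the last. The Ccl6 arrays overlapped in Mex3a High and in Mex3a Low cells but not in Mex3a Neg cells. Over all Mex3a gates the Lgr5 High and Lgr5 Low arrays overlapped for Ccl6 and also for Ccl9. Averaged over the Mex3a gates the Ccl6 difference was -0.35 ± 0.18, with -0.54 in MR793 and -0.15 in MR820. It was -0.18 without the MR793 array of Mex3a Neg Lgr5 Low cells and -0.51 without the MR820 one. limma called 236 genes between the Lgr5 gates (1.38%; 0.252% higher and 1.13% lower in Lgr5 High). The strips limit this comparison: in MR793 the Lgr5 High arrays were all on strip 1 and the Lgr5 Low arrays all on strip 3, and only the Mex3a High pair of MR820 shared a strip, where the difference was -0.27 for Ccl6 and -0.84 for Ccl9. With the strip as a block the means were -0.24 for Ccl6 and -0.80 for Ccl9.

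**Figure D2:**
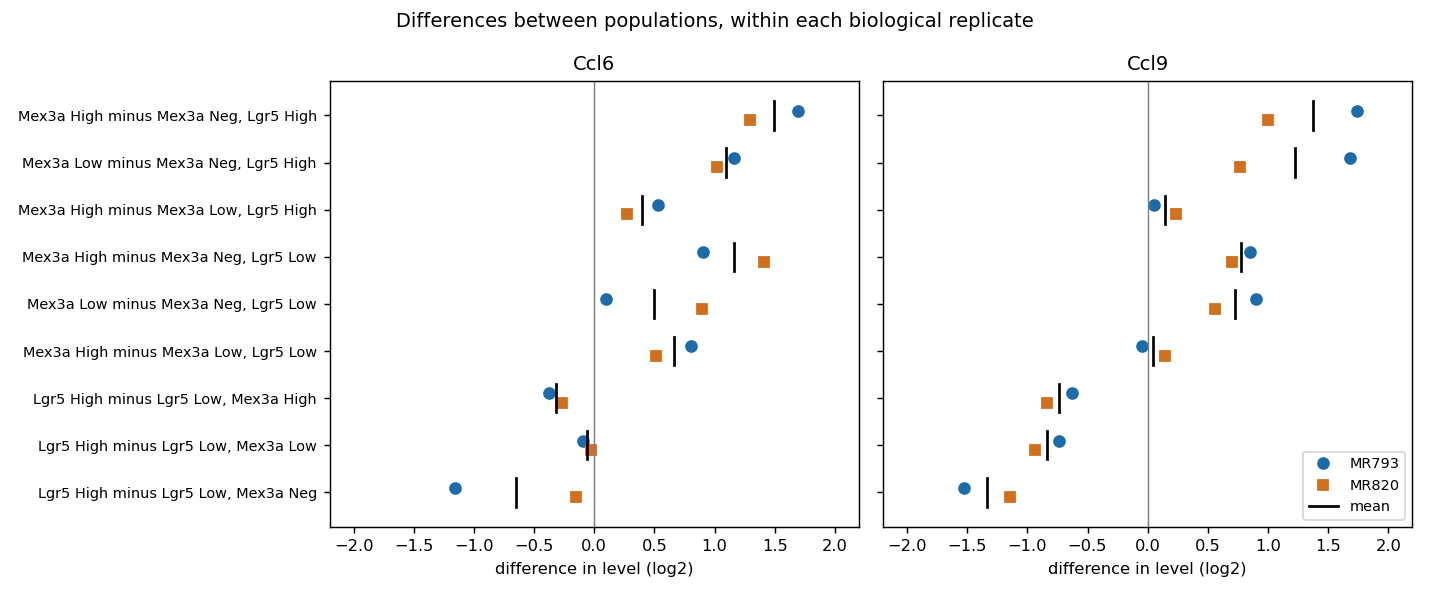
Differences in level (log2, horizontal axis) of Ccl6 and Ccl9 between populations, each as the first-named minus the second-named gate, with MR793 as circles, MR820 as squares and the mean as a bar. Both genes lie to the right of 0 for Mex3a High and Mex3a Low against Mex3a Neg, and the Lgr5 differences of Ccl9 lie between -1.52 and -0.63.

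Over the 12 arrays the Pearson correlation of Ccl6 with Ccl9 was 0.72, and 0.75 without the array that stood apart. These arrays share 6 populations, 2 replicates and 1 normalization, so the values are descriptions. Within MR793 it was 0.88 and within MR820 0.69 (6 arrays each). It was 0.92 over the 6 Lgr5 High arrays and 0.48 over the 6 Lgr5 Low arrays. Among the 1715 named genes whose population means span 1 or more, Ccl9 ranked 76th in likeness to Ccl6, and Ccl6 ranked 38th in likeness to Ccl9, so many other genes ran closer to each than its neighbour did.

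The 8 genes most like Ccl6 were Spink4 (r = 0.94), Reg4 (0.94), Mptx1 (0.87), Kcnma1 (0.87), Elapor1 (0.86), Hpd (0.85), Rnase1 (0.84) and Gadd45g (0.84), over 12 arrays. Spink4 encodes a secreted protease inhibitor of goblet cells, Reg4 a secreted C-type lectin, Mptx1 a mucosal pentraxin, Kcnma1 a potassium channel, Hpd an enzyme of tyrosine breakdown, Rnase1 a secreted ribonuclease and Gadd45g a growth-arrest and stress gene. Spink4 had 12.93 in MR793 and 12.03 in MR820 in Mex3a High Lgr5 High cells, 12.05 and 11.78 in Mex3a Low Lgr5 High cells, and 10.98 and 10.94 in Mex3a Neg Lgr5 High cells. With Lgr5 Low it had 12.70 and 12.22 in Mex3a High, 12.27 and 12.06 in Mex3a Low, and 12.07 and 11.56 in Mex3a Neg cells. As for Ccl6, the 2 Mex3a Neg arrays with Lgr5 High were the lowest. The 4 genes least like Ccl6 were Gas2l3 (-0.74), Hmmr (-0.71), Bub1 (-0.70) and B3glct (-0.69), of which the first 3 are known from mitosis. Their lowest population mean was in Mex3a High cells of one Lgr5 gate or the other. For Hmmr and Bub1 it was in Mex3a High Lgr5 High cells and rested on the array that stood apart. Hmmr and Bub1 had 6.11 and 5.89 there, against 7.33 and 6.93 on the MR820 array of that population. Within MR820 both were lowest in Mex3a High Lgr5 Low cells, at 6.93 and 6.60.

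The 8 genes most like Ccl9 were Atp2a3 (r = 0.89), Selenom (0.88), Spdef (0.88), Creb3l1 (0.87), Slc12a8 (0.85), Rap1gap (0.83), Dpysl2 (0.83) and Dll4 (0.81). Atp2a3 encodes a calcium pump of the endoplasmic reticulum, Selenom a selenoprotein of the same compartment, Spdef a transcription factor of goblet and Paneth cell maturation, Creb3l1 a membrane-bound transcription factor of secretory cells, Slc12a8 a solute carrier, Rap1gap a brake on the small GTPase Rap1, Dpysl2 a tubulin-binding protein and Dll4 a Notch ligand. Spdef had 8.78 in MR793 and 8.35 in MR820 in Mex3a High Lgr5 High cells, 8.28 and 7.82 in Mex3a Low Lgr5 High cells, and 7.61 and 7.64 in Mex3a Neg Lgr5 High cells. With Lgr5 Low it had 8.79 and 8.84 in Mex3a High, 8.94 and 8.92 in Mex3a Low, and 8.47 and 8.16 in Mex3a Neg cells. Like Ccl9, it was lowest in Mex3a Neg Lgr5 High cells and close together in Mex3a High and Mex3a Low cells with Lgr5 Low. The 4 genes least like Ccl9 were Fgf1 (-0.76), B3glct (-0.75), Sp5 (-0.74) and Slc14a1 (-0.69), and Sp5 is a Wnt target. None of the 8 genes most like Ccl6 was among the 8 most like Ccl9, while B3glct was in both sets of 4.

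All genes together had a median r of 0.08 with Ccl6 and -0.04 with Ccl9, and 7.39% and 3.96% of them lay over 0.5. Of 336 correlations of the named genes recomputed without 1 array, after quantile normalization again or with arrays centred on a common median, 329 stayed within 0.1 of the value given and 0 changed sign. The genes were picked for extreme r on these same arrays, and each recomputation reused nearly all of them. The values were therefore bound to stay close, and these counts are no measure of stability.

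**Figure D3:**
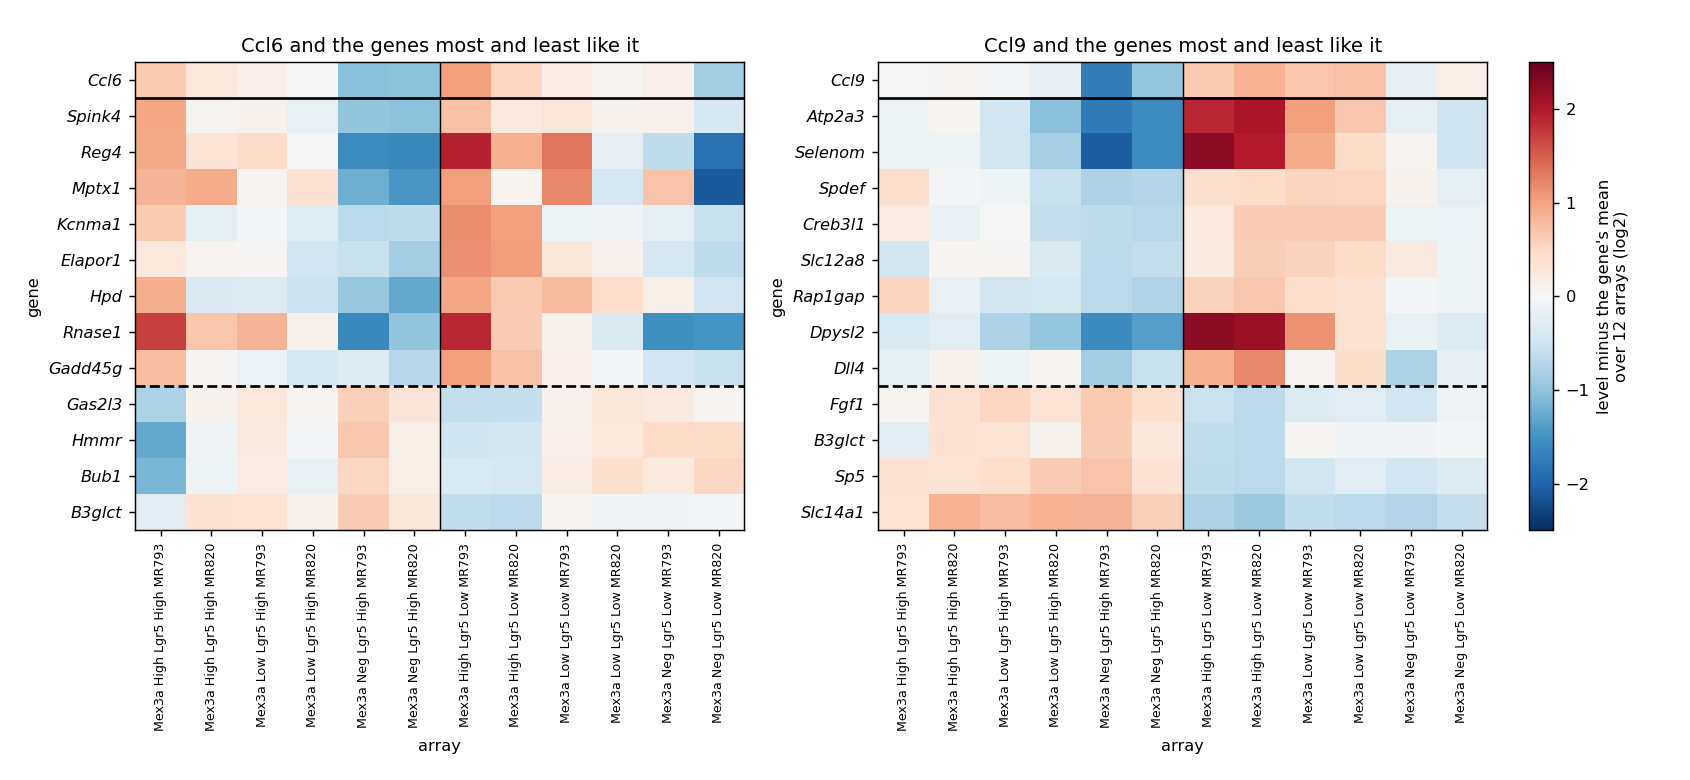
Level minus the gene's mean over 12 arrays (log2, colour) for Ccl6 and Ccl9, each above the 8 genes most like it and, under the dashed line, the 4 least like it, with one column per array and a line between Lgr5 High and Lgr5 Low arrays. The Ccl6 set is blue mainly in the Mex3a Neg columns, and the Ccl9 set is red mainly in the Lgr5 Low columns of Mex3a High and Mex3a Low cells.

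Cell type marker lists were set beside the pair. The lists were chosen with earlier results of these data known, so correlations and calls counted over them, here and below, are a description. For Ccl6 the highest median r was that of the tuft cell list (0.71, with 15 of 15 measured genes over 0.5), followed by the Paneth cell list (0.67, 6 of 9) and the enteroendocrine cell list (0.66, 19 of 19), whereas the goblet cell list had 0.32 (6 of 18). For Ccl9 it was the goblet cell list (0.70, 12 of 18), then the tuft cell list (0.68, 15 of 15), the secretory progenitor list (0.66, 7 of 12) and the enteroendocrine cell list (0.65, 16 of 19), whereas the Paneth cell list had 0.27 (0 of 9). The secretory progenitor list had 0.39 with Ccl6 (4 of 12, Spdef, Neurog3, Dll4 and Cdkn1c). The enterocyte list had 0.03 with Ccl6 and 0.01 with Ccl9, and the intestinal stem cell list had -0.32 and -0.49. Genes within a list move together, Spdef and Neurog3 stand in 2 of the lists, and Spdef, Spink4, Creb3l1, Slc12a8 and Dll4 are also among the genes named above.

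The lists followed the pair over some gates and not over others. The mean level of the tuft cell list was 9.81 in MR793 and 9.73 in MR820 in Mex3a High Lgr5 Low cells, 7.86 and 6.90 in Mex3a Low Lgr5 Low cells, and 5.44 and 5.49 in Mex3a Neg Lgr5 Low cells. limma called 15 of its 15 genes higher in Mex3a High than in Mex3a Neg cells with Lgr5 Low, against 1.71% of all genes called higher. Its enteroendocrine counterpart was 9.65 and 9.35 in Mex3a High, 8.24 and 7.26 in Mex3a Low, and 6.14 and 5.94 in Mex3a Neg cells of that gate, with 16 of 19 genes called higher in Mex3a High than in Mex3a Neg cells. In Mex3a High against Mex3a Low cells of that gate, where Ccl9 differed by 0.05 and Ccl6 by 0.66, 14 of 15 tuft cell genes were called higher, and 5 of 19 enteroendocrine genes, namely Neurod1, Isl1, Pax4, Scg2 and Pcsk1 (0.889% of all genes were called). With Lgr5 High the tuft cell list was 6.82 in MR793 and 6.73 in MR820 in Mex3a High, 5.78 and 5.58 in Mex3a Low, and 5.46 and 5.34 in Mex3a Neg cells. The enteroendocrine cell list had 6.83 and 6.66 in Mex3a High, 6.04 and 5.89 in Mex3a Low, and 5.88 and 5.99 in Mex3a Neg cells of that gate. Between Mex3a Low and Mex3a Neg cells of this gate Ccl6 differed by 1.09 and Ccl9 by 1.22. The median difference there was 0.24 for the tuft cell list and 0.02 for the enteroendocrine cell list. It was 1.30 for the Paneth cell list.

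The Paneth cell list stood at 10.52 in MR793 and 10.11 in MR820 in Mex3a High Lgr5 High cells, 10.01 and 9.87 in Mex3a Low Lgr5 High cells, and 8.83 and 8.997 in Mex3a Neg Lgr5 High cells. With Lgr5 Low it was 10.49 and 10.04 in Mex3a High, 9.48 and 9.36 in Mex3a Low, and 7.67 and 8.10 in Mex3a Neg cells, and Defa21, Mmp7, Itln1, Pnliprp2 and Clps (5 of 9) were called higher in Mex3a High than in Mex3a Neg cells, against 1.71% of all genes. For Mex3a Low minus Mex3a Neg with Lgr5 High, 8 of 9 genes of this list were positive, and limma called 0. The Paneth cell list was lowest in Mex3a Neg Lgr5 Low cells, whereas Ccl6 was lowest in Mex3a Neg Lgr5 High cells. Of the goblet cell list, 17 of 18 genes had a negative Lgr5 High minus Lgr5 Low difference (median -0.70, against 0.04 for all genes), and 5 were called lower in Lgr5 High cells, Tff3, Fcgbp, Agr2, Rep15 and Guca2a, against 1.13% of all genes called lower. Ccl9 at -0.97 had the same sign. Across the Mex3a gates the goblet cell list had the sign of Ccl9 in some comparisons and not in others. For Mex3a Low minus Mex3a Neg with Lgr5 Low, 17 of 18 genes were positive (median 0.35, Ccl9 at 0.73). With Lgr5 High, 14 of 18 were positive for Mex3a High minus Mex3a Neg (median 0.27, Ccl9 at 1.37). For Mex3a Low minus Mex3a Neg in that gate it was 13 of 18 (median 0.10, Ccl9 at 1.22). For Mex3a High minus Mex3a Neg with Lgr5 Low, 8 of 18 were positive (median -0.11, Ccl9 at 0.77). For Mex3a High minus Mex3a Low with Lgr5 Low it was 2 of 18 (median -0.28, Ccl9 at 0.05). The enterocyte list also had negative Lgr5 High minus Lgr5 Low differences, in 16 of 17 genes (median -0.82), and Krt20 alone was called lower. With the strip as a block limma called 0 genes between the Lgr5 gates (456 at an unadjusted p under 0.05). In the Lgr5 High gate the enterocyte list ran against the pair: 17 of 17 genes had a negative difference for Mex3a High minus Mex3a Neg (median -0.82) and for Mex3a Low minus Mex3a Neg (median -1.88), and limma called 0 of the 17 in either (4 and 11 at an unadjusted p under 0.05, against 3.87% and 0.462% of all genes). The part of these cell types in the levels of Ccl6 and Ccl9 was not tested.

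Myeloid markers were examined because both chemokines are known from myeloid cells. Of 22 measured genes of the myeloid cell list, 6 had a mean above the array median: Itgax, Csf1r, Lyz2, Cd68, Fcer1g and S100a9. Lyz2 was bright, but its probe set may also read the Paneth cell gene Lyz1, so it is uncertain. The list mean was 6.24 on the array that stood apart and 5.36 to 5.70 on the other 11. Its median r was 0.26 with Ccl6 (2 genes over 0.5, Ptprc at 0.60 and C1qa at 0.54) and -0.01 with Ccl9 (0 over 0.5). Ptprc, the pan-leukocyte antigen CD45, had a mean of 5.83 in Mex3a High Lgr5 Low cells and of 4.00 to 4.29 in the other populations. It was thus highest where Ccl6 was highest, at a level below the median of the arrays. limma called Ptprc and Lyz2, 2 of the 22 genes, higher in Mex3a High than in Mex3a Neg cells with Lgr5 Low, against 1.71% of all genes. RMA gives no true 0, so absence cannot be read from these values. The lymphocyte list had a median r of 0.02 with Ccl6 and -0.12 with Ccl9, with 0 of 10 genes over 0.5 for either. The part of leukocytes in the levels of the pair was not tested.

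**Figure D4:**
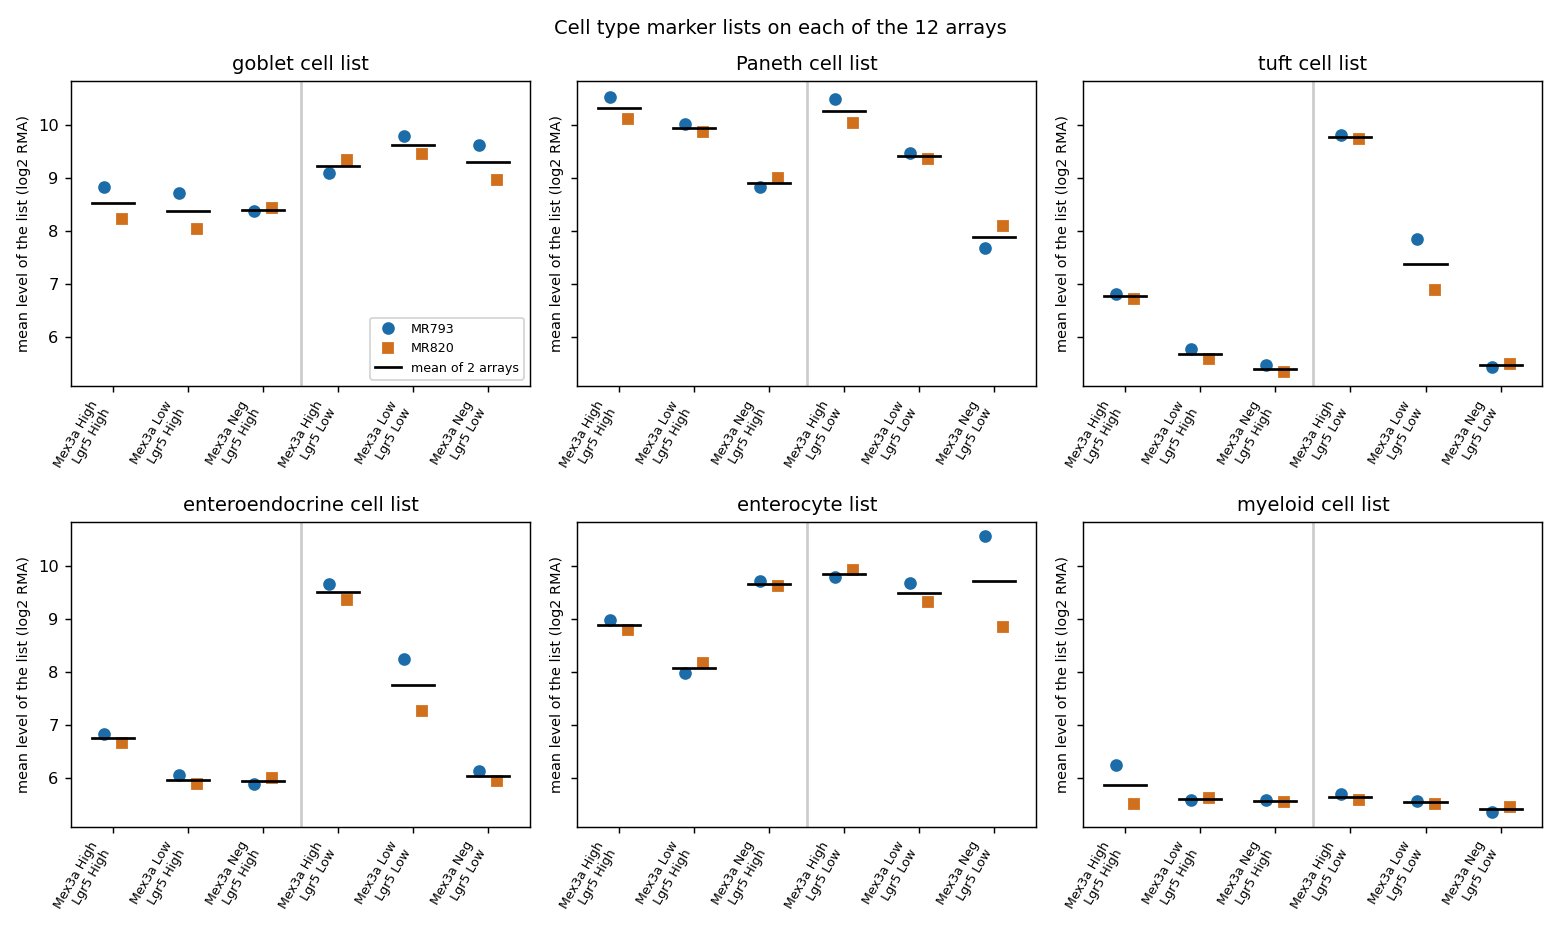
Mean level (log2 RMA, vertical axis) of 6 cell type marker lists in the 6 populations, with MR793 as circles, MR820 as squares and the mean of both as a line. The tuft and enteroendocrine cell lists peak in Mex3a High Lgr5 Low cells, the goblet cell list is higher with Lgr5 Low, and the myeloid cell list stays at 5.36 to 5.70 on 11 arrays.

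The population means of each other chemokine ligand spanned less than those of Ccl6 or Ccl9. Of 36 other ligands listed, 33 were measured, 14 had a mean above the array median and 2 had a mean of 8 or more: Ccl25, the small intestinal ligand of Ccr9, and Ccl28, a mucosal ligand of Ccr10. limma called 0 of the 33 ligands in any of the 6 comparisons, whose background shares (0% to 1.73%) are given above. At an unadjusted p under 0.05 there were 3 ligands for Mex3a High against Mex3a Neg cells with Lgr5 High, 3 between the Lgr5 gates and 0 in each of the other 4 comparisons. Of all genes, 3.87% were under that p in the first of these and 11.6% between the Lgr5 gates. Ccl25 had 11.19 in MR793 and 11.27 in MR820 in Mex3a High Lgr5 High cells, 11.40 and 11.33 in Mex3a Low Lgr5 High cells, and 11.64 and 11.43 in Mex3a Neg Lgr5 High cells. With Lgr5 Low it had 11.43 and 10.995 in Mex3a High, 11.48 and 11.18 in Mex3a Low, and 11.81 and 11.26 in Mex3a Neg cells. It was high throughout and varied little. It differed between Mex3a High and Mex3a Neg cells by -0.30 ± 0.21 with Lgr5 High (limma adjusted p = 0.508) and by -0.33 ± 0.21 with Lgr5 Low (limma adjusted p = 1), a sign opposite to that of Ccl6 and Ccl9 in both replicates of each gate. Ccl28 lay between 10.01 and 10.42 on all arrays.

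Among the 33 ligands only Ccl27a had population means that spanned 1 or more, 1.24, and its highest value was on the array that stood apart. That array held the highest value of 26 of 33 ligands and of 15 of 19 receptors, but not of Ccl6 or Ccl9. The share over all genes is not given here, so nothing is read from these counts for the chemokine genes. With Lgr5 High, 28 of 33 ligands had a positive Mex3a High minus Mex3a Neg difference, with a median of 0.18 against 0.07 for all genes. The chemokine genes of the same cluster, Ccl3, Ccl4 and Ccl5, had 4.75 to 5.69, 4.90 to 5.82 and 6.29 to 7.30 over the 12 arrays. Ccl3 and Ccl4 thus lay below the median of every array, and Ccl5 lay above it.

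Of 24 receptors listed, 19 were measured, and 3 had a mean above the array median. Ccr1, through which both ligands act, had 4.29 to 4.61 on all arrays, below the median of every array. Ackr4 was the one receptor of the 19 that limma called. Of all genes, 1.73% were called for Mex3a High against Mex3a Neg cells with Lgr5 Low. The share was 0.889% for Mex3a High against Mex3a Low cells of that gate and 1.38% between the Lgr5 gates. Nothing is read from the count of 1 for the receptors. Ackr4 is an atypical receptor that takes up Ccl19, Ccl21 and Ccl25 without G protein signalling. It had 9.37 in MR793 and 9.56 in MR820 in Mex3a High Lgr5 Low cells, 7.15 and 6.53 in Mex3a Low Lgr5 Low cells, and 6.26 and 5.397 in Mex3a Neg Lgr5 Low cells. With Lgr5 High it had 6.15 and 5.97 in Mex3a High, 5.55 and 5.49 in Mex3a Low, and 5.51 and 5.34 in Mex3a Neg cells. It was high in the population where both chemokines were highest and between 5.34 and 7.15 elsewhere.

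With Lgr5 Low, Mex3a High cells exceeded Mex3a Neg cells in Ackr4 by 3.64 ± 0.29 (limma adjusted p = 0.000156, higher in both replicates), and Mex3a Low cells by 2.63 ± 0.29 (limma adjusted p = 0.00306). Averaged over the Mex3a gates its Lgr5 High minus Lgr5 Low difference was -1.71 ± 0.17 (limma adjusted p = 0.00143), a call that the fit with a strip block did not make (-1.68, adjusted p = 0.457). With Lgr5 High the Mex3a High minus Mex3a Neg difference was 0.63 ± 0.29 (limma adjusted p = 0.505), and the difference between the 2 Lgr5 gates was -3.003 ± 0.42 (limma adjusted p = 0.0144; 0.398% of all genes were called in that contrast). Without 1 array the last value lay between -3.43 and -2.57, and in 5 of 12 such fits its adjusted p was 0.0555 to 0.114. The p values rest on the spread between 2 biological replicates, pooled over the 6 populations and moderated over all genes.

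**Figure D5:**
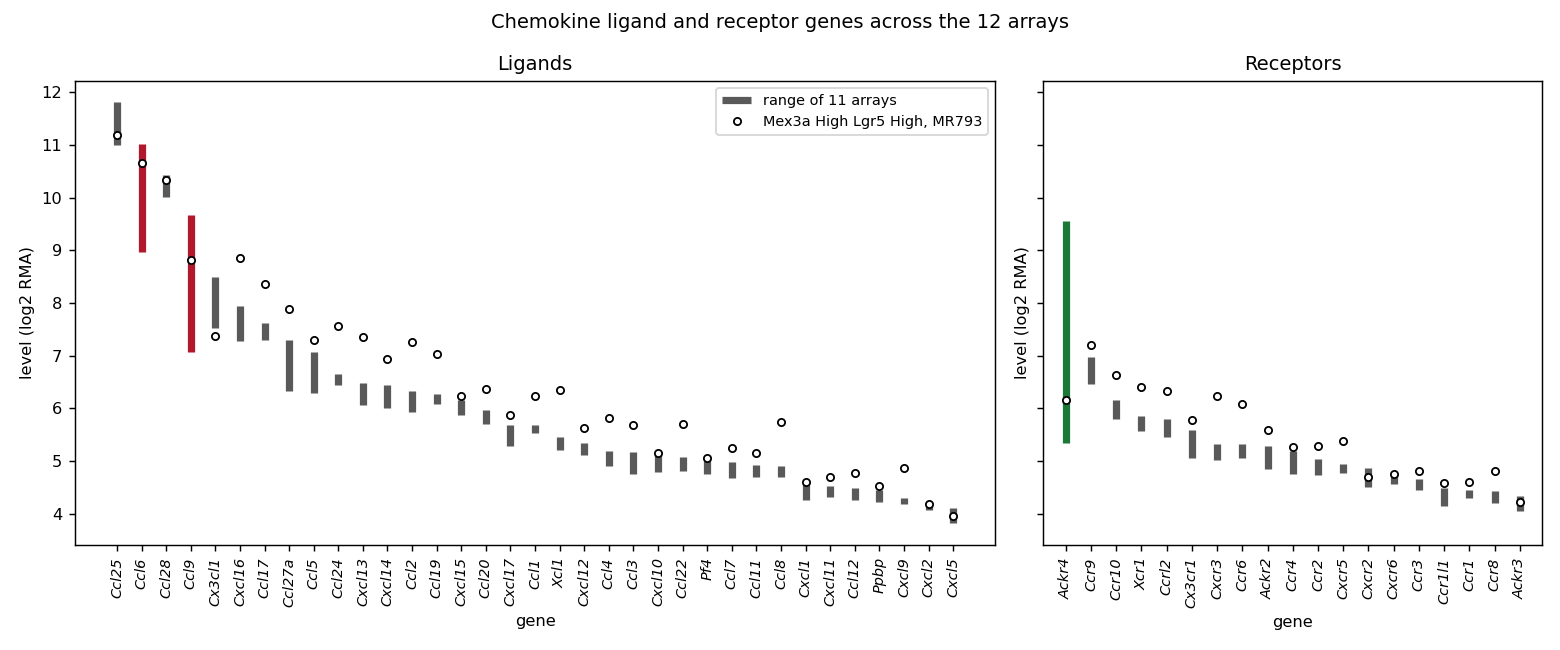
Range of each measured chemokine ligand (left, with Ccl6 and Ccl9 in red) and receptor (right, with Ackr4 in green) over 11 arrays as a bar and its value on the array that stood apart as a circle (log2 RMA, vertical axis). Levels of different genes come from different probe sets and are not compared, and the bars of Ccl6, Ccl9 and Ackr4 are long while that circle tops most other bars.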

How the data were processed

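Gene expression was measured on 12 Affymetrix arrays, 6 populations in 2 biological replicates. The authors deposited a table of log2 values by probe set, computed with RMA according to the submitters' processing notes. No version or settings of RMA are stated in the sources used here. Values were used as deposited, and 0 columns were left over. The number of arrays limits the precision.

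Of 45141 probe sets, 28898 were annotated to 1 gene and 551 to several, and 15692 were not listed in the annotation and not analysed here. Identifiers of 28689 probe sets matched the mouse gene table, and 0 names changed. Each of the 17097 genes was read by the brightest of its probe sets that name no other gene, and 7180 genes had several. Population means were fitted with limma 3.58.1 (R 4.3.3; eBayes with trend, no block), with Benjamini-Hochberg adjustment over all genes and calls at an adjusted p under 0.05. SE is limma's moderated standard error and SD the spread of 2 arrays.

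Biological replicates pair the populations: deviations of 14 of 15 population pairs correlated over 0.1 (lowest -0.115, median 0.382), and of 10 of 10 pairs at 0.374 or more without the population that holds the array apart. The main fit, which gave the SEs, p values and calls, leaves this pairing out. With the replicate as a block, 347 instead of 295 genes were called for Mex3a High against Mex3a Neg cells with Lgr5 Low. Between the Lgr5 gates it was 348 instead of 236.

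Named genes were the pair, chemokine genes called or with a mean of 8 or more, the 8 most and 4 least alike by Pearson r over 12 arrays among genes whose population means span 1 or more (gene models passed over, 1756 genes before), and up to 2 closest members of each marker list. Other genes in the text, such as Ccl27a, Ccr1, Ccl3, Ccl4 and Ccl5, were named for a count, for the pair's receptor or for their place. The members and lists were chosen with earlier results of these data known. The contrast of the Mex3a High minus Mex3a Neg difference between the Lgr5 gates was added after seeing the data, whereas Lgr5 High minus Lgr5 Low was planned. Promoter windows are RefSeq's (GRCm38.p6), found for both genes, and were aligned locally with Biopython 1.88 (match 2, mismatch -3, gap -5 to open and -2 to extend); the alignment was widened from 250 to 300 bases after the first result was seen. The fit was tested on simulated data. Alternatives were a replicate or strip block, normalization, dim genes, probe sets and leaving out each array.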

Additional observations from a re-analysis of the deposited data

Results flagged for a closer look

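The Mex3a High minus Mex3a Neg difference of Ackr4 differed between the Lgr5 gates. It was 0.63 with Lgr5 High and 3.64 with Lgr5 Low, a difference of -3.003 ± 0.42 on the log2 scale (limma adjusted p = 0.0144, an interaction contrast over 12 arrays that was added after seeing the data). The sign was the same in 12 of 12 fits without 1 array, but in 5 of them the adjusted p was over 0.05 (0.0555 to 0.114), with differences of -3.09 to -2.57. These were the fits without either array of Mex3a Neg Lgr5 High cells, without either array of Mex3a High Lgr5 Low cells and without the MR820 array of Mex3a Neg Lgr5 Low cells.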

How the results depend on the processing

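Many recomputed differences were bound to stay the same, so the counts that follow are no measure of stability. A replicate block and leaving out dim genes change no difference, nor does leaving out an array outside the comparison. Of 126 recomputed differences for Ccl6, 120 moved by less than the spread between replicates, and of 126 for Ccl9, 116. The others were the leave-one-out values of Ccl9 with Lgr5 High (0.99 to 1.75 for Mex3a High and 0.85 to 1.60 for Mex3a Low, both against Mex3a Neg), of Ccl6 with Lgr5 Low (0.66 to 1.65 and -0.0016 to 0.99), of the gap between the Lgr5 gates (-0.16 to 0.83 for Ccl6, 0.22 to 0.97 for Ccl9), and the mean of both Ccl9 probe sets, which gave 0.82, 0.71, -0.71 and 0.25 for Mex3a High and Mex3a Low against Mex3a Neg with Lgr5 High, Lgr5 High against Low, and the gap. The replicate block left every difference as it was, 1.49 for Ccl6 and 1.37 for Ccl9 between Mex3a High and Mex3a Neg cells with Lgr5 High, and gave 5 called genes there. The strip block gave 1, the common median 2. Mex3a Low against Mex3a Neg with Lgr5 Low gave 20 with the strip block and 3 after quantile normalization, Mex3a High against Mex3a Low 92 without dim genes, Lgr5 High against Low 0 with the strip block (0 chemokine genes), and the gap 141 with the strip block and 33 without dim genes.

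Without 1 array, genes called ran over 0 to 10644 for Mex3a High against Neg with Lgr5 High, 165 to 907 with Lgr5 Low, 0 to 18 for Mex3a Low against Neg and 49 to 420 for Mex3a High against Low with Lgr5 Low, 106 to 9323 between the Lgr5 gates and 18 to 8315 for the gap. Chemokine genes ran over 0 to 33, 1 to 28 between the Lgr5 gates, and 0 to 31 for the gap. The highest counts, 10644, 9323 and 8315, came without the MR820 array of Mex3a High Lgr5 High cells, where the array that stood apart is the only one of its population. Without that array itself the counts were 3, 875 and 160. Probe sets near the array median, such as the second one of Ccl9, limit what small differences show.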
